A study of Mus musculus with 4 samples.

Results

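The genes described here encode the surface molecules with which haematopoietic cells hold on to, leave and return to their niche. They are 15 integrin alpha subunits, 8 integrin beta subunits, the selectin ligand gene Selplg, the adhesion genes Cd44 and Vcam1, 5 chemokine receptors and the receptor genes S1pr1 and Robo4. These 33 genes were chosen by symbol. Each was matched to a row of the deposited array table that carries that symbol alone, and all 33 of 33 had such a row among 22180 genes with one. For Itgav and Selplg, which had 2 rows each, the row with the higher mean over the 4 arrays was used.

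Thy1+ LSK cells were sorted from mouse bone marrow and profiled uncultured and untreated on whole-transcript arrays. LSK stands for lineage-negative, Sca-1-positive and Kit-positive cells, a fraction enriched for haematopoietic stem and progenitor cells. One group of 2 arrays came from mice with intact Nol3 (Nol3+/+). The other group, also of 2, came from mice without Nol3 (Nol3-/- MPN), whose label MPN is read here as myeloproliferative neoplasm. All mice were of C57BL/6 background and aged between 11 and 18 months. From the series title alone MPN could apply to either genotype. The sample labels, which attach it to Nol3-/- only, were followed. The labels give neither the sex of the animals nor how many animals stand behind an array, nor in which cells Nol3 was deleted, so the p-values measure the spread between these arrays, which may be technical.

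Integrins are paired receptors of an alpha and a beta subunit. The alpha subunit largely sets the ligand, and cytoplasmic proteins such as talin and kindlin switch the pair into its binding state. In bone marrow, stem and progenitor cells are held by Itga4-Itgb1 (VLA-4) on stromal VCAM-1 and by the chemokine receptor Cxcr4, which senses Cxcl12. Circulating cells slow down on endothelial selectins through glycosylated ligands such as the product of Selplg, arrest through integrins, and leave tissue along a gradient of sphingosine-1-phosphate sensed by S1pr1.

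The arrays had similar distributions of the log2 signal, with medians from 5.35 to 5.39. Nol3+/+ replicate 1 stood apart, correlating across tested genes at r = 0.911 with its own replicate and at 0.899 and 0.908 with the Nol3-/- MPN arrays, against 0.949 between the Nol3-/- MPN arrays. Nol3+/+ replicate 2 correlated at 0.929 and 0.945 with the Nol3-/- MPN arrays, more closely than with its own replicate, so the correlations do not set the 2 groups apart. Kit, a gene of the sort, read 8.07 and 8.10 in Nol3+/+, against 8.38 and 7.39 in Nol3-/- MPN, and Thy1 read 4.74, 5.02, 4.64 and 5.24 in the same order, near 4.835, the mean log2 signal below which a gene was left untested as dim. Ly6a, which encodes Sca-1, had no row that carries its symbol alone, so its level is not given. Nol3 itself read 5.31 and 5.52 in Nol3+/+, against 5.38 and 5.50 in Nol3-/- MPN, so its row shows no loss and gives no check of the genotype labels. The level is close to the array medians, and whether its probes lie in the deleted part is not given in the labels, so group names here and every direction rest on the labels alone. Xist read 5.43 and 5.28 in Nol3+/+, against 10.88 and 10.69 in Nol3-/- MPN, and of 13 tested Y-linked genes 11 had both Nol3-/- MPN arrays below both Nol3+/+ arrays, so genotype, disease label and sex-linked signal cannot be told apart. None of the 33 genes is X- or Y-linked (0 of 33). The samples are bulk, so fewer cells of a type and less RNA per cell cannot be told apart.

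In these cells no integrin or homing receptor gene was shown to differ between the groups. Of the 33 genes, 30 were bright enough to be tested, and Itgam, Itgb5 and Itgb7 were left out as dim. With limma across all 16635 tested genes, 0 of the 30 passed an adjusted p of 0.05, against 0.0240% of all tested genes. With X- and Y-linked genes left out, 0 of all genes passed it. At an unadjusted p under 0.05 there were also 0 of 30, against 5.80% of all tested genes. None differed by 2-fold (0 of 30, against 1.78% of all tested genes, or 1.02% at an unadjusted p under 0.05). The log2 differences, Nol3-/- MPN minus Nol3+/+, ran from -0.43 for Cx3cr1 to 0.53 for Itgb2. Their median was 0.01, and that of all tested genes was also 0.01. The adjusted p-values of the 30 genes lay between 0.841 and 0.998.

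For 26 of the 30 genes the 95% interval of the difference lay within a 2-fold change in either direction, as it did for 83.1% of all tested genes. The exceptions were Itgb1, Itgb2, Itga4 and Ccr2, for which a 2-fold difference cannot be set aside at this number of arrays. For 21 of the 30 genes the wider of the gaps between replicates exceeded the difference between the groups, against 77.0% of all tested genes.

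For 15 of the 30 genes the groups were fully separated, with no array of one inside the range of the other, against 35.5% of all tested genes. Both Nol3-/- MPN arrays lay higher for 6 genes (background 19.7%), namely Itgb2, Itgb1, Itgav, Ccr9, Itgax and Itgal. Both lay lower for 9 (background 15.9%), namely Cx3cr1, Itgb3, Itga5, S1pr1, Itga3, Itga9, Itga2b, Vcam1 and Itgb6. These counts are descriptions, since members of one family measured on the same arrays are not independent replicates.

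**Figure D1:**
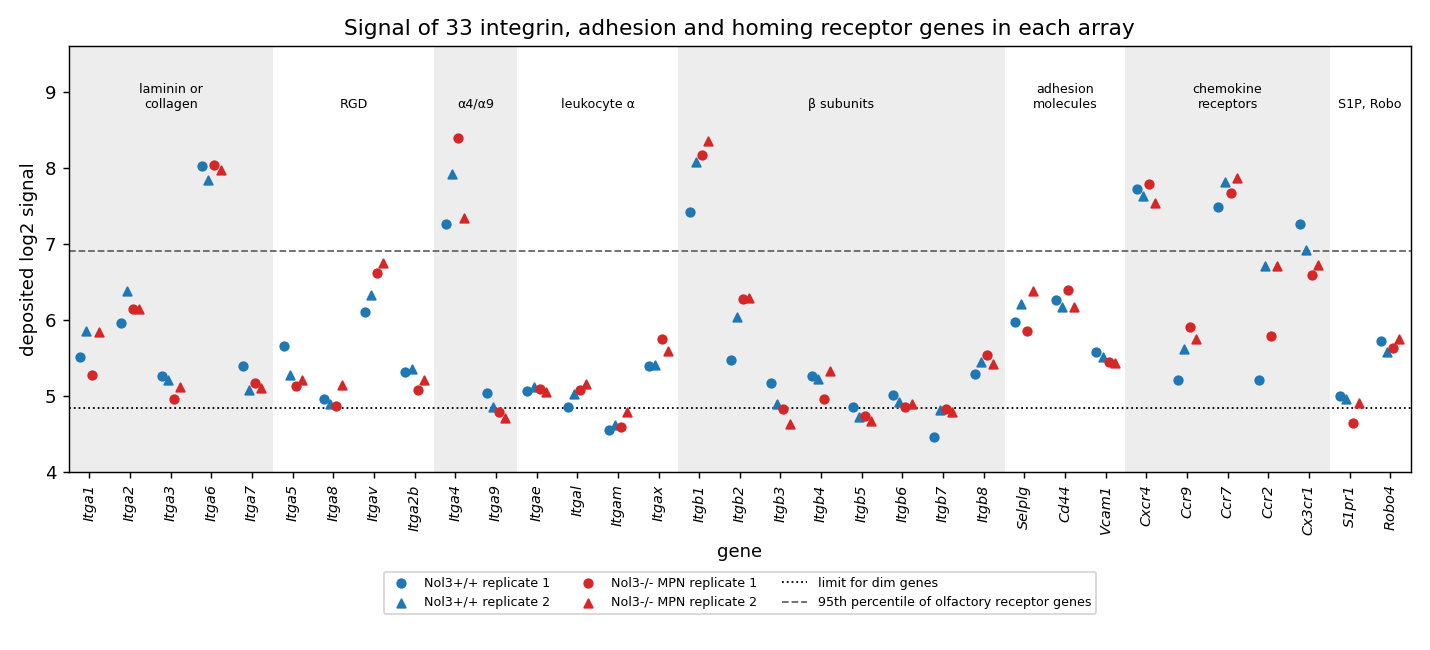
Deposited log2 signal (vertical axis) of the 33 genes (horizontal axis, ordered by role) in each of the 4 arrays, with the limit for dim genes at 4.835 (dotted) and the 95th percentile of 1105 olfactory receptor genes at 6.9 (dashed). Itga6, Itga4, Itgb1, Cxcr4 and Ccr7 lie above the dashed line in all 4 arrays, and most other genes lie well below it.

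Olfactory receptor genes, which blood cells are not known to use, give a rough idea of the signal an array reports without much transcript, although probes differ in their own brightness. The 95th percentile of the mean signals of 1105 such genes was 6.9. All 4 arrays lay above it for 5 of the 33 genes, namely Itga6, Itga4, Itgb1, Cxcr4 and Ccr7. For Cx3cr1 some arrays did, and for the other 27 genes 0 arrays did. Detection p-values were not used here, and how much of the signal of these 27 genes is background was not tested.

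The annotated promoters of 4 genes whose groups did not overlap are shown, Itgb1 and Itgax for those with higher values in Nol3-/- MPN and Itga2b and Cx3cr1 for those with lower values, so that the start sites behind these rows can be inspected. Each holds 250 bases before and 50 bases after the annotated start, 5′ to 3′ on the strand of the gene, from RefSeq on GRCm38.p6, in which 22 of the 33 genes have a promoter entry. Capitals mark matches, on either strand, to the letters GAGGAA (the core bound by the myeloid factor PU.1), AGATAA (bound by GATA factors) and TGTGGT (bound by Runx factors). No match of one motif overlaps a match of another.
Itgb1 (chr8:128685404-128685703, plus strand): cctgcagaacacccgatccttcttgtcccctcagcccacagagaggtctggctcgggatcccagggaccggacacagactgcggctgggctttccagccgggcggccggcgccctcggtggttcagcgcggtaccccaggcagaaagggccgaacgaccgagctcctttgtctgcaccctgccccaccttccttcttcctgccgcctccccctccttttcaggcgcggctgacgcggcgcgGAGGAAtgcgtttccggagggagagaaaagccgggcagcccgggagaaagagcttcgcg
Itgax (chr7:128129300-128129599, plus strand): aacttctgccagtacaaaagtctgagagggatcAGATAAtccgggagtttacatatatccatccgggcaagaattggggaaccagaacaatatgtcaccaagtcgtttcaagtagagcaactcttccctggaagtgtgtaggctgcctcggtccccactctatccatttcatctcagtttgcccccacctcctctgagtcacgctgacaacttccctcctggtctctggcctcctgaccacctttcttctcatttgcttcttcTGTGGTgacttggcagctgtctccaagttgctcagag
Itga2b (chr11:102469834-102470133, minus strand): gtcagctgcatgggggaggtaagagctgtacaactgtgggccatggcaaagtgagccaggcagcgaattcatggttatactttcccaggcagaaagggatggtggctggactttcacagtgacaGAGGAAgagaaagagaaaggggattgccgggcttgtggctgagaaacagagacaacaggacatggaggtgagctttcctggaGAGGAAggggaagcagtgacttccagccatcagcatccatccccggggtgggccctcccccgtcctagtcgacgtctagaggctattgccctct
Cx3cr1 (chr9:120068247-120068546, minus strand): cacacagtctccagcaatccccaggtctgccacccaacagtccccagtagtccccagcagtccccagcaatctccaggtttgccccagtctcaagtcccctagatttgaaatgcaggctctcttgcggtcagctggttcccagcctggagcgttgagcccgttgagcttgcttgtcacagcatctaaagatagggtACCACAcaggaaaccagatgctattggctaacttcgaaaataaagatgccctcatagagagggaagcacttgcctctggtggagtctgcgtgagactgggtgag

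In the Itgb1 promoter the GAGGAA match begins 9 bases before the start, and in that of Itga2b such matches begin 126 and 44 bases before it. Itgax holds AGATAA beginning 217 bases before and TGTGGT beginning 13 bases after the start, and Cx3cr1 holds TGTGGT on the opposite strand, 54 bases before it. GAGGAA occurred in 28.3% of all 32851 promoter windows and in those of 10 of the 22 genes, among them genes on both sides of the comparison (Itgb1 and Itgav, Itga2b, Itga3 and Itga5). AGATAA occurred in 11.2% of windows and 3 of 22 genes, and TGTGGT in 16.8% and 4 of 22. The 32851 windows belong to 27025 genes, and a gene was counted if any of its windows matched, so the percentages and the gene counts are in unlike units. A match of these letters is a description of the window and shows no binding.

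**Figure D2:**
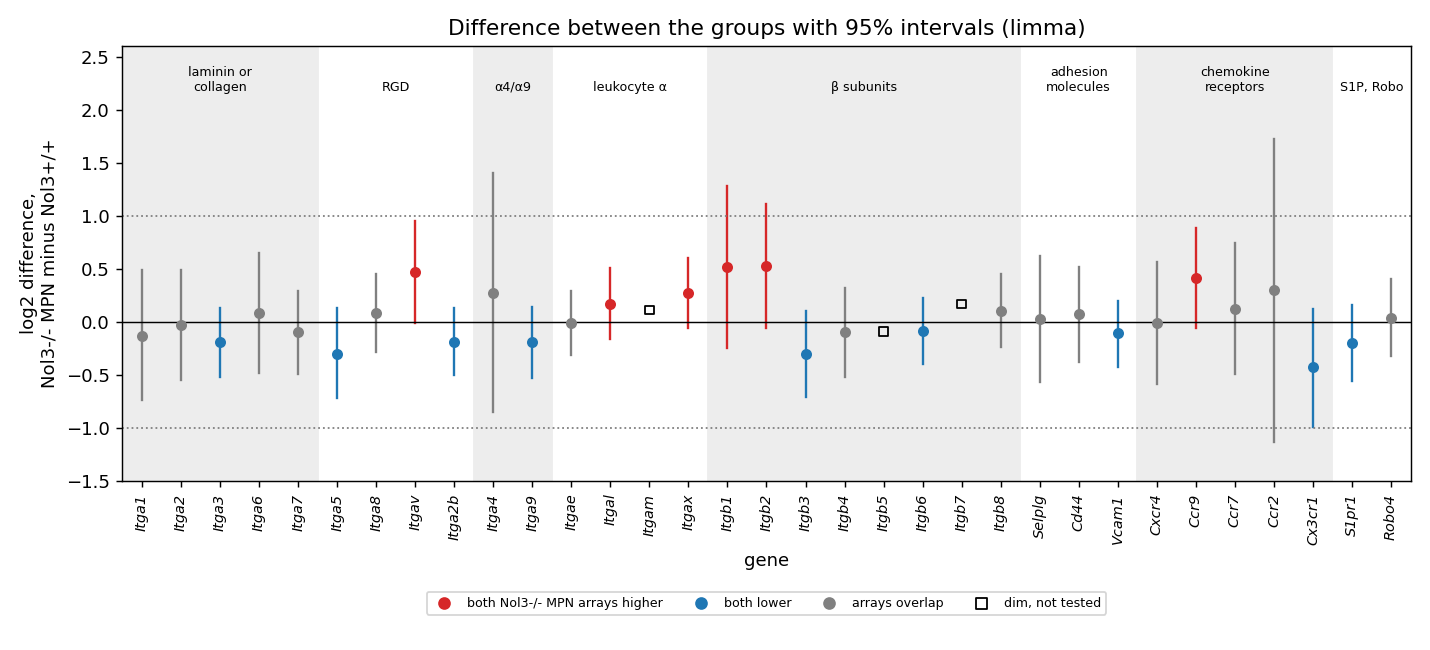
Log2 difference between Nol3-/- MPN and Nol3+/+ (vertical axis) with its 95% interval from limma for the genes by role (horizontal axis), coloured by whether both Nol3-/- MPN arrays lay higher, lower or overlapping. Each of the 30 intervals includes 0, and 26 lie between the dotted lines at a 2-fold change.

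The beta subunits Itgb1 and Itgb2 had the largest positive differences. Itgb1, the common partner of the VLA integrins, read 7.41 and 8.07 in Nol3+/+, against 8.17 and 8.35 in Nol3-/- MPN. Nol3+/+ replicate 1 was the low array, and the other Nol3+/+ array lay only 0.10 below the nearer Nol3-/- MPN array. The mean log2 signal was 7.74 ± 0.47 in Nol3+/+ and 8.26 ± 0.13 in Nol3-/- MPN (SD, n = 2 each). The ratio was 1.43-fold, or 0.52 ± 0.30 on the log2 scale (difference ± SE), at an adjusted p of 0.853 by limma. Without Nol3+/+ replicate 1 the difference was 0.18, and without Nol3+/+ replicate 2 it was 0.85.

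Itgb2, the beta subunit shared by the leukocyte integrins, read 5.47 and 6.04 in Nol3+/+, against 6.27 and 6.29 in Nol3-/- MPN. The Nol3-/- MPN arrays lay close together above both Nol3+/+ arrays, which were spread. The ratio was 1.44-fold, a log2 difference of 0.53 (SE 0.23, 95% interval -0.06 to 1.11), with an adjusted p of 0.841 by limma. Leaving out Nol3+/+ replicate 1 took the difference to 0.24, and leaving out Nol3+/+ replicate 2 took it to 0.81.

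The other beta subunits had small differences. Itgb3, which completes the platelet fibrinogen receptor and the vitronectin receptor, read 5.17 and 4.89 in Nol3+/+, against 4.83 and 4.63 in Nol3-/- MPN, a difference of -0.30 (SE 0.16), with an adjusted p of 0.841 by limma. Its groups were separated by only 0.06, and 3 of these values lie close to or under the limit for dim genes. Itgb6, an epithelial partner of Itgav, differed by -0.09, with groups 0.03 apart. Itgb4, the partner of Itga6 in epithelial hemidesmosomes, differed by -0.10, and Itgb8, which also pairs with Itgav, by 0.10, both with overlapping arrays. Of the dim genes, Itgb7, which pairs with Itga4 and Itgae in gut-homing lymphocytes, read 4.45 and 4.81 against 4.82 and 4.78. Itgb5, another partner of Itgav, read 4.85 and 4.72 against 4.73 and 4.67.

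Of the 15 alpha subunits 14 were tested. Their median log2 difference was -0.02, with 6 higher and 8 lower. Among the subunits that bind laminin or collagen, Itga6, the laminin receptor subunit CD49f carried by stem cells, read 8.02 and 7.83 in Nol3+/+, against 8.04 and 7.97 in Nol3-/- MPN. All 4 arrays lay near one another and the groups overlapped. The difference was 0.08 (SE 0.22, 95% interval -0.48 to 0.65), with an adjusted p of 0.973 by limma. Itga3, another laminin receptor subunit, read 5.26 and 5.21 against 4.96 and 5.11, a difference of -0.19 (SE 0.13). Itga7, Itga2 and Itga1, the first a laminin and the others collagen receptor subunits, differed by -0.10, -0.03 and -0.13, and their arrays overlapped.

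Among the alpha subunits that recognise the RGD tripeptide, Itgav, which binds vitronectin and activates latent TGF-beta, read 6.10 and 6.32 in Nol3+/+, against 6.61 and 6.75 in Nol3-/- MPN. The groups were 0.29 apart, the widest separation among the 33 genes, and both Nol3-/- MPN arrays were the high ones. The difference was 0.47 (SE 0.19, 95% interval -0.01 to 0.95), and its p was the smallest among the 30 genes (limma adjusted p = 0.841). Its difference ran from 0.36 to 0.58 as each array was left out. The dimmer Itgav row, at 4.39 and 4.69 in Nol3+/+, against 4.52 and 4.58 in Nol3-/- MPN, was itself dim and differed by 0.01, and with the mean of both rows the difference was 0.24. Itga5, the fibronectin receptor subunit, read 5.65 and 5.27 against 5.12 and 5.20, a difference of -0.30 (SE 0.17). Nol3+/+ replicate 1 was the high array, and without it the difference was -0.11. Itga8, an integrin subunit best known from the kidney, differed by 0.08 with overlapping arrays.

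Itga2b, the CD41 subunit of megakaryocytes and platelets, which pairs with Itgb3, read 5.31 and 5.35 in Nol3+/+, against 5.08 and 5.20 in Nol3-/- MPN. Both of its Nol3-/- MPN arrays were the lower ones, as for Itgb3, and its difference was -0.19 (SE 0.12), with an adjusted p of 0.863 by limma. Of 7 megakaryocyte and platelet markers with a row, 0 were lower (background 15.9%) and 2 were higher (background 19.7%) in the Nol3-/- MPN arrays without overlap. The mean log2 signal of the 7 was 5.59 and 5.55 in Nol3+/+, against 5.56 and 5.74 in Nol3-/- MPN. Pf4, the platelet chemokine gene, had means of 4.74 in Nol3+/+, under the limit for dim genes, and 5.33 in Nol3-/- MPN. Gata1, the other higher marker, had groups only 0.01 apart. The rest overlapped, with log2 differences from -0.23 for Gp9 to 0.12 for Gp6.

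Itga4, the VLA-4 subunit that binds VCAM-1 and fibronectin, read 7.26 and 7.92 in Nol3+/+, against 8.39 and 7.33 in Nol3-/- MPN. The Nol3-/- MPN arrays held the highest value and a value near the lowest, 1.07 apart, so the groups overlapped. The difference was 0.27 (SE 0.44, 95% interval -0.85 to 1.40), with an adjusted p of 0.954 by limma, and its sign turned when Nol3-/- MPN replicate 1 was left out (-0.26) or Nol3+/+ replicate 1 was (-0.06). Its partner Itgb1 also had its low array in Nol3+/+ replicate 1 but was highest in Nol3-/- MPN replicate 2. Vcam1, the counter-receptor of VLA-4, read 5.58 and 5.51 against 5.44 and 5.43, a difference of -0.11 (SE 0.12). Its level lay in the range of olfactory receptor genes. Itga9, the relative of Itga4, read 5.03 and 4.85 against 4.78 and 4.71, a difference of -0.19, with both Nol3-/- MPN values under the limit for dim genes.

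Of the leukocyte alpha subunits, Itgax (CD11c), typical of dendritic cells and some monocytes, read 5.39 and 5.40 in Nol3+/+, against 5.74 and 5.59 in Nol3-/- MPN. The Nol3+/+ arrays agreed closely, and both Nol3-/- MPN arrays lay above them, by 0.20 for the nearer one. The difference was 0.27 (SE 0.13), with an adjusted p of 0.841 by limma, and it ran from 0.20 to 0.34 as each array was left out. Itgal, which forms the ICAM receptor LFA-1 with Itgb2, read 4.85 and 5.02 against 5.07 and 5.15, a difference of 0.17 with groups 0.05 apart. Itgam, the CD11b subunit of monocytes and granulocytes, was dim, at 4.55 and 4.61 against 4.59 and 4.79. Itgae, which binds E-cadherin, read between 5.05 and 5.11 in the 4 arrays. Itgb2 and its partners Itgax and Itgal thus lay higher in both Nol3-/- MPN arrays, while the arrays overlapped for Itgam, its dim partner. None of the tested differences among these genes passed the threshold.

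Markers of cells that carry these leukocyte subunits are given beside them. Dendritic cell markers, 8 of 10 with a row, included 0 that were higher (background 19.7%) and 2 that were lower (background 15.9%) in the Nol3-/- MPN arrays without overlap. The mean log2 signal of these 8 markers was 6.58 and 6.39 in Nol3+/+, against 6.09 and 6.07 in Nol3-/- MPN. Their summed linear signal was 993 and 847 against 682 and 681. The lower ones were Irf8, with means of 7.86 and 6.03, and H2-Aa, at 6.35 and 6.03 against 4.91 and 5.68. The other dendritic cell markers overlapped, with log2 differences from -0.24 for H2-Ab1 to 0.06 for Flt3. Granulocyte and monocyte markers, 14 of 14 with a row, had 3 higher (background 19.7%) and 4 lower (background 15.9%) without overlap. Their mean was 5.99 and 6.36 against 6.09 and 6.13, and their summed linear signal was 1460 and 2050 against 1450 and 1570. Of these Ly6g, Ly6c1, Csf1r and Cd14 were dim. S100a9 and S100a8, the calprotectin genes, lay lower, at 8.93 and 9.40 against 8.41 and 8.26 and at 7.03 and 7.88 against 6.60 and 6.58. The macrophage marker Adgre1 lay higher, at 5.49 and 5.56 against 5.90 and 5.88. Among the other markers, 4 of 7 for B cells, 4 of 10 for T and NK cells, 1 of 6 for erythroid cells and 2 of 8 for mast cells, basophils and eosinophils were higher without overlap (background 19.7%), and 1, 3, 2 and 3 in the same order were lower (background 15.9%). The marker counts include dim genes, while the backgrounds cover tested genes only. Ms4a1 and Vpreb1 of the B cell list were dim, and Vpreb1 was the lower B cell marker. Fcer1a, Gzmb and Tpsb2 of the mast cell, basophil and eosinophil list were dim. Fcer1a and Gzmb were the 2 higher markers of that list, and Tpsb2 was among its lower ones. The part of cells with these markers in the integrin values was not tested.

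**Figure D3:**
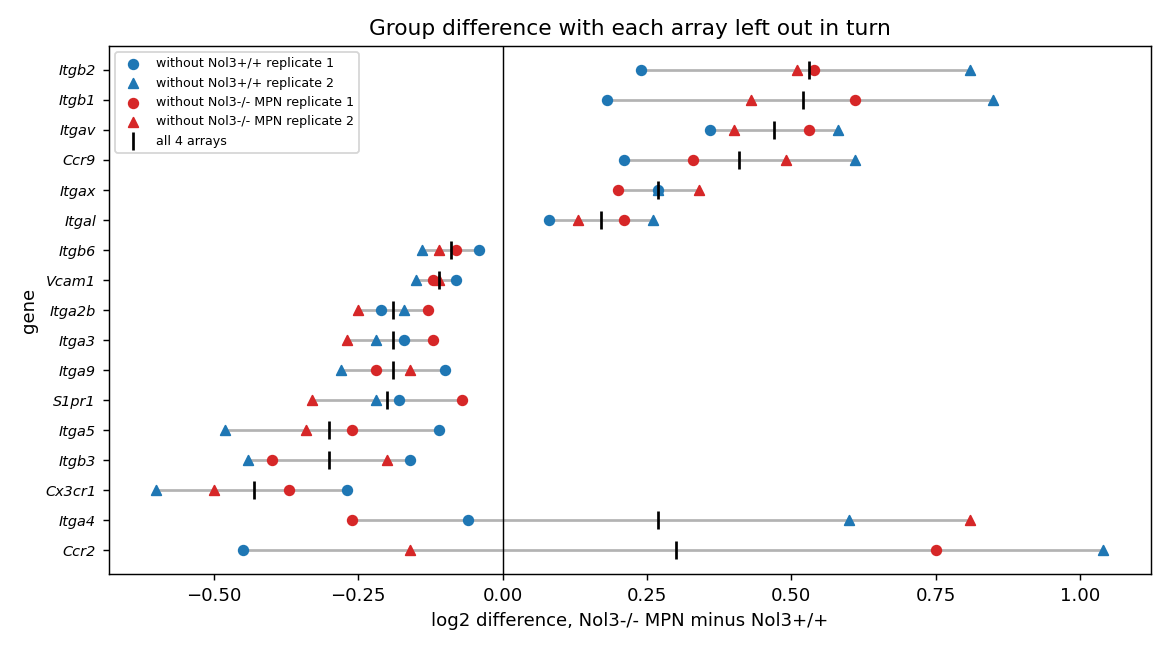
Log2 difference (horizontal axis) of the 15 genes whose groups did not overlap, and of Itga4 and Ccr2 (vertical axis), with all 4 arrays (black bars) and with each array left out in turn (symbols). For the 15 genes the sign is fixed by the lack of overlap and only the size can move, while Itga4 and Ccr2 fall on both sides of 0. The differences of Itgb1 and Itgb2 are smallest without Nol3+/+ replicate 1 and largest without Nol3+/+ replicate 2.

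Of the chemokine receptors, Ccr9 lay higher and Cx3cr1 lower in both Nol3-/- MPN arrays, and the arrays overlapped for Cxcr4, Ccr7 and Ccr2. Cxcr4, the Cxcl12 receptor that retains stem cells in marrow, read 7.72 and 7.63 in Nol3+/+, against 7.78 and 7.54 in Nol3-/- MPN. Its 4 arrays lay within a narrow band and the groups overlapped. The difference was -0.01 (SE 0.23, 95% interval -0.59 to 0.56), with an adjusted p of 0.998 by limma. Ccr7, which guides cells to lymphoid organs, also read above the olfactory receptor range, at 7.48 and 7.81 against 7.67 and 7.86, a difference of 0.12 (SE 0.24). Ccr9, which with its ligand Ccl25 brings progenitors to the thymus, read 5.21 and 5.61 in Nol3+/+, against 5.90 and 5.74 in Nol3-/- MPN. Both Nol3-/- MPN arrays were the higher ones, with a difference of 0.41 and an SE of 0.18 (limma adjusted p = 0.841). Without Nol3+/+ replicate 1 it was 0.21.

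Cx3cr1, the fractalkine receptor of monocytes and their progenitors, had the largest negative difference. It read 7.26 and 6.92 in Nol3+/+, against 6.59 and 6.72 in Nol3-/- MPN, and the groups were 0.21 apart. The ratio was 0.74-fold, a log2 difference of -0.43 (SE 0.22, 95% interval -0.99 to 0.12), with an adjusted p of 0.841 by limma. Its difference was -0.27 without Nol3+/+ replicate 1. Ccr2, which brings monocytes out of the marrow, had the largest SE of the 30 genes and the widest gap between the Nol3+/+ arrays, at 5.21 and 6.70 in Nol3+/+, against 5.79 and 6.70 in Nol3-/- MPN. Replicate 1 was the low array in both groups. The difference was 0.30 (SE 0.56, 95% interval -1.13 to 1.72), with an adjusted p of 0.958 by limma. It was -0.45 without Nol3+/+ replicate 1 and 1.04 without Nol3+/+ replicate 2.

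Selplg, which encodes the P-selectin ligand PSGL-1, read 5.97 and 6.20 in Nol3+/+, against 5.85 and 6.37 in Nol3-/- MPN. The Nol3-/- MPN arrays enclosed the Nol3+/+ arrays, and the difference was 0.03 (SE 0.23), with an adjusted p of 0.997 by limma. Its dimmer row, at 5.18 and 5.09 against 5.49 and 5.37, lay higher in both Nol3-/- MPN arrays by 0.30, so the rows of this gene do not give the same picture. Cd44, the hyaluronan receptor, read 6.26 and 6.16 against 6.39 and 6.17, a difference of 0.07. S1pr1, the egress receptor, read 4.99 and 4.95 against 4.64 and 4.90, a difference of -0.20 (SE 0.14), near the limit for dim genes. Robo4, a guidance receptor of endothelium and stem cells, read between 5.58 and 5.75 in the 4 arrays and differed by 0.04.

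Nol3+/+ replicate 1, the array that stood apart, was the lowest or the highest of the 4 arrays for 20 of the 30 genes (66.7%), against 59.6% of all tested genes. Without Nol3+/+ replicate 2, which leaves replicate 1 alone to represent Nol3+/+, the spread came from the Nol3-/- MPN arrays and the lone array was assumed to vary like them. Then 5 of the 30 genes reached an unadjusted p under 0.05, namely Itgb2, Ccr9, Itgb1, Itga5 and Ccr2, against 11.4% of all tested genes, and 0 passed the adjusted threshold (smallest limma adjusted p = 0.285). Without Nol3+/+ replicate 1 it was 0 of 30, against 5.57%.

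The proteins that act on or with these receptors were described through 4 lists. In each list 0 genes passed an adjusted p of 0.05 in limma. Over the lists, with 27, 18, 18 and 24 genes tested, 4 reached an unadjusted p under 0.05 (Vav1 and Fut7 higher, Vcl and Rgs1 lower). The background was 5.80% of all tested genes, with 3.73% higher and 2.07% lower. That count depends on the setting. It was 2 after quantile normalization and 2 without a dim filter. Under a replicate block Vav1 and Vcl missed that p and Parvg reached it. Of the integrin activation and adhesion machinery, 27 of 32 genes were tested, with 18 higher (66.7%, against 51.7% of all tested genes), 9 lower and a median of 0.05, against 0.01. Both Nol3-/- MPN arrays lay higher for 10 of them (37.0%, background 19.7%) and lower for 3 (11.1%, background 15.9%). Of the higher ones, Parvb, Ptk2b and Cdc42 had groups only 0.01 apart and Itgb1bp1 0.02, and Flna is X-linked. Fermt2 and Rasgrp2 of this list, left out as dim, lay lower in both Nol3-/- MPN arrays. As above, such counts are descriptions, since genes measured on the same arrays are not independent replicates. Vav1, a signalling protein of blood cells, read 6.29 and 6.02 against 6.57 and 6.75 (difference 0.51, limma adjusted p = 0.841), and Parvg, the blood-cell parvin, read 5.86 and 6.20 against 6.42 and 6.81 (0.58). Vcl, which encodes vinculin, read 5.87 and 6.04 against 5.60 and 5.55, a difference of -0.38. Fermt3, the blood-cell kindlin needed for integrin activation, differed by -0.39, and the talin gene Tln1 by 0.01.

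Of 20 selectins and enzymes that glycosylate selectin ligands, 18 were tested, with 9 higher, 9 lower and a median of 0.00. Fut7, the fucosyltransferase that makes the selectin-binding sugar on PSGL-1, read 5.14 and 5.05 in Nol3+/+, against 5.82 and 5.35 in Nol3-/- MPN. Both Nol3-/- MPN arrays were the higher ones, and the difference of 0.49 was past an unadjusted p of 0.05 only (limma adjusted p = 0.841). It was 0.26 without Nol3-/- MPN replicate 1. Sele, the endothelial E-selectin, differed by -0.29, and Tpst1, a tyrosine sulfotransferase, by -0.17.

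Of 23 niche ligands and counter-receptors 18 were tested, with 8 higher and 10 lower and a median of -0.01. Their differences lay between -0.19 and 0.23. The Cxcr4 ligand Cxcl12 differed by -0.13, and Icam1, a ligand of LFA-1, by 0.23. Slit3, a Slit ligand of Robo receptors, differed by -0.17. Angpt1, a stem cell niche factor, was among the brightest genes of these lists, at 10.54 and 10.83 in Nol3+/+, against 10.54 and 10.46 in Nol3-/- MPN, a difference of -0.18. Stromal and endothelial markers, 12 of 12 with a row, had a mean log2 signal of 5.31 and 5.17 in Nol3+/+, against 5.23 and 5.32 in Nol3-/- MPN, and Lepr, Kdr and Tek were dim.

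In the list of chemokine and S1P receptor signalling, 24 of 27 genes were tested, with 14 higher and 10 lower and a median of 0.04. Rgs1, a regulator that dampens signalling from chemokine receptors, had the largest difference, at 9.70 and 9.34 in Nol3+/+, against 8.92 and 8.59 in Nol3-/- MPN. Both Nol3-/- MPN arrays were lower, by -0.77 (SE 0.24, 95% interval -1.38 to -0.15), past an unadjusted p of 0.05 only (limma adjusted p = 0.841). Elmo1, which acts with Dock2 in cell migration, read 7.89 and 7.45 against 8.62 and 7.92, a difference of 0.60 that was 0.25 without Nol3-/- MPN replicate 1 and 0.94 without Nol3-/- MPN replicate 2. Msn, the X-linked gene of the cortical linker moesin, differed by 0.44, or by 0.18 without Nol3-/- MPN replicate 1.

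**Figure D4:**
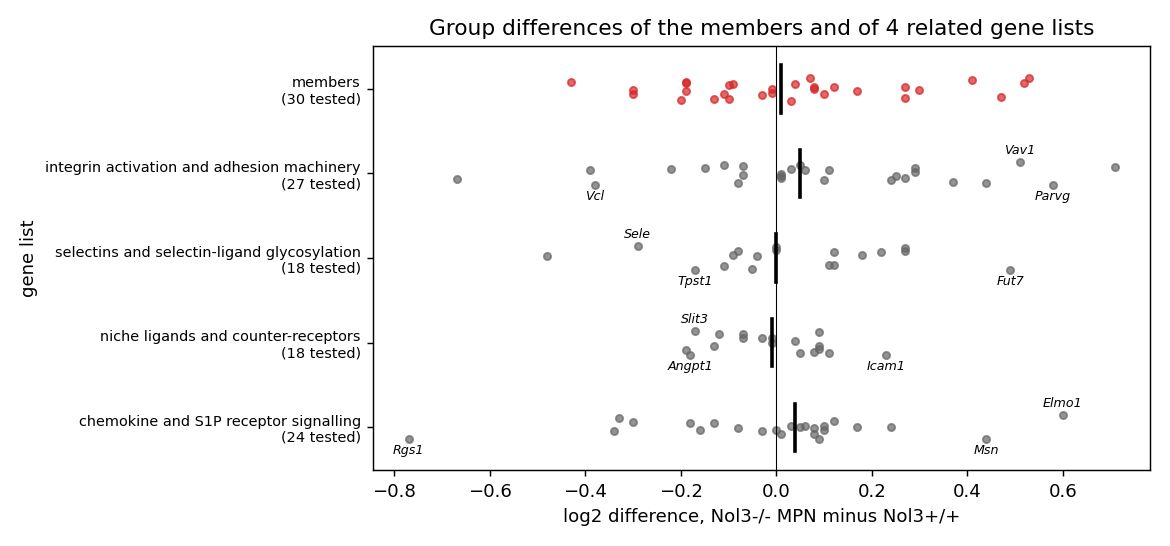
Log2 differences, Nol3-/- MPN minus Nol3+/+ (horizontal axis), of the tested integrin and homing receptor genes and of the tested genes of 4 related lists (vertical axis), 1 point per gene with the list median as a black bar and the 3 genes with the smallest p of each list named. The medians lie between -0.01 and 0.05, and Rgs1, at -0.77, is the point farthest from 0.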

How the data were processed

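Per the submitters' processing notes the array software was Expression Console and Transcriptome Analysis Console (Affymetrix). How background was corrected and arrays were normalized is not given in the sources used here. Deposited values (41345 rows, 2.84 to 13.5, in 4 arrays) were treated as log2 signals, a scale inferred from their range. The platform annotation gave 23521 rows 1 gene symbol, 1814 several and 16010 none, and for a gene with several rows the one with the highest mean was used. Genes with a mean under the 25th percentile (4.835) were left out as dim. The comparison used limma 3.58.1 under R 4.3.3 (variance trend, 2 residual and 3.19 prior degrees of freedom), Benjamini-Hochberg over 16635 genes. On simulated data the fit was checked only for returning the median size of differences that had been added. How many true differences it can call with 2 arrays per group is not given here. The genes and lists were chosen with earlier results of these data known. All 33 genes are named, with the 3 smallest p of each related list and markers as examples. Alternatives changed the variance model, normalization, dim filter, row rule, replicate block, X- and Y-linked genes and arrays. The number of arrays limits the precision.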

Additional observations from a re-analysis of the deposited data

How the results depend on the processing

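With 2 arrays per group, no integrin or homing receptor gene passed the adjusted threshold under any alternative tried (0 in each), and of 347 re-computed differences 23 changed sign. For the 15 genes whose groups did not overlap, leaving out an array cannot turn the sign, so their sign there is no sign of stability. Of 227 differences re-computed with all arrays kept, 2 changed sign. These were after quantile normalization, with Itga6 at -0.03 and Ccr7 at -0.01. Many of the 227 could not change. The variance model, dim filter, replicate block and removal of X- and Y-linked genes leave a difference as it is. The row rule affects only Itgav and Selplg among these genes. Both counts of sign changes therefore say little about stability. As each array was left out in turn, the differences ran from -0.41 to 0.16 for Itga1, -0.24 to 0.19 for Itga2, -0.26 to 0.81 for Itga4, -0.01 to 0.18 for Itga6, -0.26 to 0.06 for Itga7, -0.05 to 0.22 for Itga8, -0.04 to 0.01 for Itgae, -0.29 to 0.08 for Itgb4, -0.24 to 0.29 for Selplg, -0.04 to 0.18 for Cd44, -0.13 to 0.11 for Cxcr4, -0.04 to 0.28 for Ccr7, -0.45 to 1.04 for Ccr2 and -0.03 to 0.11 for Robo4. The genes without overlap numbered 21 to 24 with an array left out (70.0% to 80.0%, against 64.0% to 73.4% of all tested genes), since fewer arrays overlap less, and 7 of the 17 genes left by the stricter dim filter (41.2%, against 36.1% of all genes). Over all genes limma called 4, with 0 under the replicate block and 0 without X- and Y-linked genes, and from 0 to 39 with an array left out (18 without Nol3+/+ replicate 1 and 39 without Nol3+/+ replicate 2). The replicate block changed no other call at the adjusted threshold. Of the 4 list genes past an unadjusted p of 0.05 it lost Vav1 and Vcl, and Parvg came to pass that p. The deviations of same-numbered arrays from their group means correlated at 0.05 across tested genes. The labels link these arrays by number only. A single correlation over all genes cannot show whether they share a source of variation for some genes, which was not tested. Itgav reached an unadjusted p under 0.05 without a variance trend and after median centring. The number of arrays and the absence of a measured background limit what low signals can show.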

Other observations

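Markers of the sorted fraction differed in how they varied between the Nol3-/- MPN arrays, where Itga4 was higher in replicate 1. Kit read 8.38 and 7.39 and Flt3, a receptor of multipotent progenitors, 7.44 and 6.21 in the Nol3-/- MPN arrays, each higher in replicate 1, as was Itga4 at 8.39 and 7.33. Cd48, which rises as stem cells become multipotent progenitors, read 8.99 and 8.01 there, against 6.42 and 7.76 in Nol3+/+. Other markers of the fraction showed a smaller gap or the opposite order. Thy1 was lower in replicate 1, at 4.64 and 5.24, Procr read 7.85 and 7.87, Slamf1 5.29 and 5.01, and Cd34 between 8.65 and 8.82 in all 4 arrays.

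Ccr2, low in replicate 1 of both groups, is set here beside granule genes. Cpa3, a mast cell carboxypeptidase, read 6.15 and 8.06 in Nol3+/+, against 7.45 and 8.16 in Nol3-/- MPN, and Mcpt8, a basophil protease, 6.30 and 7.49 against 6.76 and 7.08. Mpo, another granule gene, shared that order, at 7.58 and 8.13 against 8.08 and 8.58. Some other granule genes did not share it in both groups. Prg2, an eosinophil granule gene, read 7.39 and 6.17 in Nol3+/+, against 5.90 and 6.02 in Nol3-/- MPN. Camp and Ngp, of neutrophil granules, were low in replicate 1 of Nol3+/+, at 4.49 and 6.38 and at 6.27 and 7.61. In Nol3-/- MPN they were higher in replicate 1, at 5.45 and 4.55 and, by only 0.15, at 6.77 and 6.62. Skap2, an adaptor of integrin signalling, read 7.30 in Nol3+/+ replicate 1 and between 8.85 and 8.99 in the other arrays. These genes were chosen after their values were seen.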
